A study of Mus musculus with 4 samples.

Results

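The genes described here were 9 genes of lipid efflux and of the liver X receptors (LXR) apart from Apoe: Abcg1, Nr1h3, Nr1h2, Mylip, Lpl, Soat1, Srebf1, Pltp and Abca7. They were taken by symbol from the 40091 genes listed in the 4 snRNA-seq libraries of mouse thalamus. Each of the 9 was listed in the files, and they were chosen with earlier results of these data known. Apoe and Abca1 were used for reference. The assay tags each captured RNA molecule of a nucleus with a unique molecular identifier (UMI), and tagged molecules are then counted. All mice were wild-type C57BL6 animals aged about 7–8 weeks and weighing 25–30 g, and their thalamus was injected on the right side, in the VPM and VPL nuclei. NS mice received 10 nl of saline, and COL mice received 0.01 U of type IV collagenase (Coll IV) in the same volume, which digests the collagen of vessel walls and causes a local haemorrhage. Injured thalamic tissue was taken 7 days later, and each library pooled the tissue of 3 mice of the same group. There were 2 libraries per group (NS1, NS2, COL1 and COL2), and the collagenase model holds both the bleeding and the effect of the enzyme itself.

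Export of cholesterol, its storage and its transfer between cells help to keep its level in the brain in bounds. LXR alpha (Nr1h3) and LXR beta (Nr1h2) are nuclear receptors that bind oxidized cholesterol and, paired with a retinoid X receptor, switch on genes of efflux. Among these targets are the ABC transporters that load cholesterol onto lipoproteins, the lipoprotein-remodelling proteins Pltp and Lpl, the ubiquitin ligase Mylip (IDOL), which removes the LDL receptor, and Srebf1, which drives fatty acid synthesis. Soat1 works on the storage side and esterifies cholesterol for lipid droplets. After injury, microglia and macrophages take up myelin and cell debris and so handle large loads of lipid.

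After quality control 9673, 10422, 5931 and 6265 nuclei with 77546840, 68723738, 69489118 and 69495483 UMIs remained in NS1, NS2, COL1 and COL2. Clusters of nuclei were named from marker genes as neuron-like, oligodendrocyte-like, astrocyte-like, microglia-like, oligodendrocyte precursor (OPC)-like and macrophage-like, and these are called neurons, oligodendrocytes and so on below. The 9 genes and the listed genes of their pathway had no part in the clustering. Levels are given as CPM, that is the UMIs of a gene over the UMI total of the cell type in the library on the usual scale. This scale does not correct for transcript length, so it compares a gene between samples and not genes with each other. COL was compared with NS on UMIs summed per library and cell type with edgeR's quasi-likelihood test, in which a gene was called at a Benjamini-Hochberg adjusted p under 0.05. With 2 libraries per group an exact permutation test of a single value cannot give a p below 0.333. Microglia numbered 321, 344, 373 and 543 nuclei in NS1, NS2, COL1 and COL2. Macrophages numbered 3 and 5 in NS1 and NS2 against 318 and 472 in COL1 and COL2. Libraries shared between 8 and 31 barcodes pair by pair.

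In microglia, Lpl, Abcg1, Soat1 and Abca7 were called higher in COL than in NS, and no tested member was called lower. The other 4 members tested, Mylip, Nr1h2, Srebf1 and Pltp, did not pass the threshold, and Nr1h3 had too few UMIs for a test. The 4 members called out of 8 tested stand beside 27.6% of all 12099 genes tested in microglia (3338 genes) called in either direction, and 13.8% called higher. The median log2 fold change of the members was 0.87, and that of all genes tested was -0.01. For reference, Abca1, the main exporter of cholesterol to lipid-poor apolipoproteins, was higher by 1.68 on the log2 scale (adjusted p = 9.92e-05), while Apoe stood at 459, 529, 178 and 788 CPM, with the COL libraries on either side of NS, and its log2 difference of 0.01 (SE 0.45, adjusted p = 0.985) averages the 2.

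The start-site regions of Soat1 and Abca7, both higher in COL microglia, and of Mylip, the most microglial of the members, are shown to place the searched letters in sequence. The windows run from 250 bases before to 50 after the start and come from RefSeq on GRCm38.p6, in which 7 of the 9 members had an entry, with 10 windows in all. Abcg1 and Lpl had none. They lie at chr1:156474279-156474578 on the minus strand (Soat1), chr10:79996244-79996543 on the plus strand (Abca7) and chr13:45389492-45389791 on the plus strand (Mylip). Capitals mark GGAAGT, the core bound by ETS factors such as PU.1.
Soat1: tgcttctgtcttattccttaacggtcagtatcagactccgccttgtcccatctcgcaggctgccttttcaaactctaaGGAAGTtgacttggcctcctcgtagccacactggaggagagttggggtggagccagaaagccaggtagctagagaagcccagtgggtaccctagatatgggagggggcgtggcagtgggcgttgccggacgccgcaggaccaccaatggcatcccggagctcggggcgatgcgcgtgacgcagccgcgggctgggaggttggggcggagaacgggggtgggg
Abca7: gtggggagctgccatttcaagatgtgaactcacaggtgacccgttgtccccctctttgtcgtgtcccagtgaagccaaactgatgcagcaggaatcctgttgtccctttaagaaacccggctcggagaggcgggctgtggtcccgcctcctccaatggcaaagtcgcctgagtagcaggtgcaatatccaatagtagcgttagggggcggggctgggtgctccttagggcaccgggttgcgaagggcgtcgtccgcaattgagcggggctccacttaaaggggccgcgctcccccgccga
Mylip: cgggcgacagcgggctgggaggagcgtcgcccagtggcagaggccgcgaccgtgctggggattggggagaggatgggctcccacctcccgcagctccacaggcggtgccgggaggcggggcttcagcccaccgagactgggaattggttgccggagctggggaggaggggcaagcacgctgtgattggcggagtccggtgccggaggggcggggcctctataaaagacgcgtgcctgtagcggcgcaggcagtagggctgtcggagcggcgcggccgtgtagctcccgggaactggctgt
Soat1 held GGAAGT once, at position -172 from the start, and Abca7 and Mylip held none, while the Nr1h2 window, not shown, held it 5 times and the other members' windows held none, where 23.8% of all 32851 promoters of this length held it in either direction. AGGTCA, the core of the sites that LXR and many other nuclear receptors bind, was searched on both strands and was found in 0 of the 10 member windows, against 16.3% of all promoters. A pair of AGGTCA cores in the same direction 4 bases apart, with at most 1 mismatch in each, was found in 0 member windows and in 1.75% of all promoters. Pairs with more mismatches are missed by this rule. A Srebf1 window (chr11:60210422-60210721) holds GGGTTA and CGGTCA 4 bases apart on the opposite strand, and GGGTTA has more than 1 mismatch. The 0 therefore does not show that the windows lack LXR sites. All searches covered a window of 300 bases and nowhere else.

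Lpl (ENSMUSG00000015568, GRCm38 chr8:68880491-68907448, plus strand) encodes lipoprotein lipase, which releases fatty acids from lipoprotein triglycerides. Its level in microglia was 2.69 and 2.79 CPM in NS1 and NS2 and 43.1 and 96.1 CPM in COL1 and COL2. Both COL libraries stood far above both NS libraries, and COL2 was itself above COL1. The NS levels rested on 2 UMIs in each library, with exact Poisson 95% intervals of 0.326–9.73 and 0.337–10.1 CPM, against 75 and 260 UMIs in COL with intervals of 33.9–54.0 and 84.8–109 CPM. Taken over the group, COL was 27.5-fold higher than NS, with an exact 95% interval of 10.6–102 that covers counting error only. The fitted log2 difference was 4.69 (SE 0.60, adjusted p = 3.11e-04), and it was 4.00 without COL2 and 5.13 without COL1. Per nucleus there were 0.00623 and 0.00581 UMIs in NS1 and NS2 and 0.201 and 0.479 UMIs in COL1 and COL2. At least 1 Lpl UMI was found in 0.623% and 0.581% of NS microglia and in 8.85% and 20.8% of COL microglia, and when each nucleus was thinned to 1000 UMIs the shares were 0%, 0%, 2.43% and 6.08%. The median depth of a microglial nucleus was 2230, 1995, 4056 and 4314 UMIs in NS1, NS2, COL1 and COL2. In oligodendrocytes, with medians of 3162.5, 2935, 5217 and 5908 UMIs, the thinned shares were 0.142%, 0.114%, 0.123% and 0.386%, so the share in thinned COL microglia was above that of a type with little Lpl.

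Abcg1 (ENSMUSG00000024030, chr17:31057675-31117988, plus strand) encodes a transporter that passes cholesterol to lipoprotein particles already loaded with lipid. It stood at 53.9 and 50.1 CPM in NS1 and NS2 and at 97.1 and 151 CPM in COL1 and COL2. The groups did not overlap, and the difference was 1.31 on the log2 scale (SE 0.25, adjusted p = 0.00273). These levels rested on 40, 36, 169 and 409 UMIs. Abca7 (ENSMUSG00000035722, chr10:79996494-80015572, plus strand), a transporter of the same class as Abca1 that is linked to phospholipid export and phagocytosis, stood at 16.2, 8.36, 32.2 and 29.6 CPM. The COL libraries were close to each other and above both NS libraries, with a log2 difference of 1.36 (SE 0.38, adjusted p = 0.0189). The NS levels of Abca7 rested on 12 and 6 UMIs, and the call was lost without NS2 (adjusted p = 0.148), with DESeq2 (adjusted p = 0.120) and with nuclei thinned to 2000 UMIs (adjusted p = 0.0697).

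Soat1 (ENSMUSG00000026600, chr1:156424525-156474331, minus strand), the storage enzyme, stood at 45.8 and 47.3 CPM in NS1 and NS2 and at 112 and 113 CPM in COL1 and COL2. The libraries of a group almost coincided, and the log2 difference was 1.32 (SE 0.21, adjusted p = 9.90e-04). Lpl, Abcg1 and Soat1 were called in each of the 17 alternative settings, with log2 differences between 1.27 and 1.51 for Soat1. Mylip (ENSMUSG00000038175, chr13:45389742-45412022, plus strand) stood at 304, 234, 353 and 344 CPM. Both COL values lay above both NS values, but the log2 difference of 0.42 (SE 0.16) did not pass the threshold (adjusted p = 0.0669). It was called in 6 of the 17 alternatives, with adjusted p from 0.00748 to 0.464, among them the fit without COL2 (adjusted p = 0.0276). Per nucleus, where depth is not divided out, Mylip stood at 0.704, 0.488, 1.65 and 1.71 UMIs.

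Of the receptors, Nr1h3 had few UMIs in microglia, and neither receptor was called. Nr1h3 (ENSMUSG00000002108, chr2:91184061-91202834, minus strand) had 0, 2, 2 and 11 UMIs in NS1, NS2, COL1 and COL2, or 0, 2.79, 1.15 and 4.07 CPM, and the ratio of COL to NS was 2.14 with an exact 95% counting interval of 0.483–19.5. Its groups overlapped. Nr1h2 (ENSMUSG00000060601, chr7:44549616-44553951, minus strand) stood at 20.2, 15.3, 15.5 and 16.3 CPM, with a log2 difference of -0.11 (SE 0.37, adjusted p = 0.852). Srebf1 (ENSMUSG00000020538, chr11:60199089-60222581, minus strand) stood at 10.8, 13.9, 10.9 and 13.7 CPM (adjusted p = 0.934). For these genes the groups lay within each other's range or nearly so. Pltp (ENSMUSG00000017754, chr2:164839518-164857711, minus strand), which moves phospholipids between lipoproteins, stood at 8.08, 13.9, 2.30 and 13.3 CPM (adjusted p = 0.765). COL1 was the lowest library for Pltp in microglia, and COL1 also had less Apoe than COL2 in each of the types counted, by 1.79 to 4.43 times. Pltp overlaps Ctsa on the other strand, and Soat1, Srebf1 and Nr1h3 overlap Gm37648, Rai1 and Gm23390 there. On the same strand Nr1h3 overlaps Gm13783, Abcg1 overlaps Gm25447, and Srebf1 overlaps Mir6921 and Mir6922. Whether the counting used strand or introns is not given in the sources used here.

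**Figure D1:**
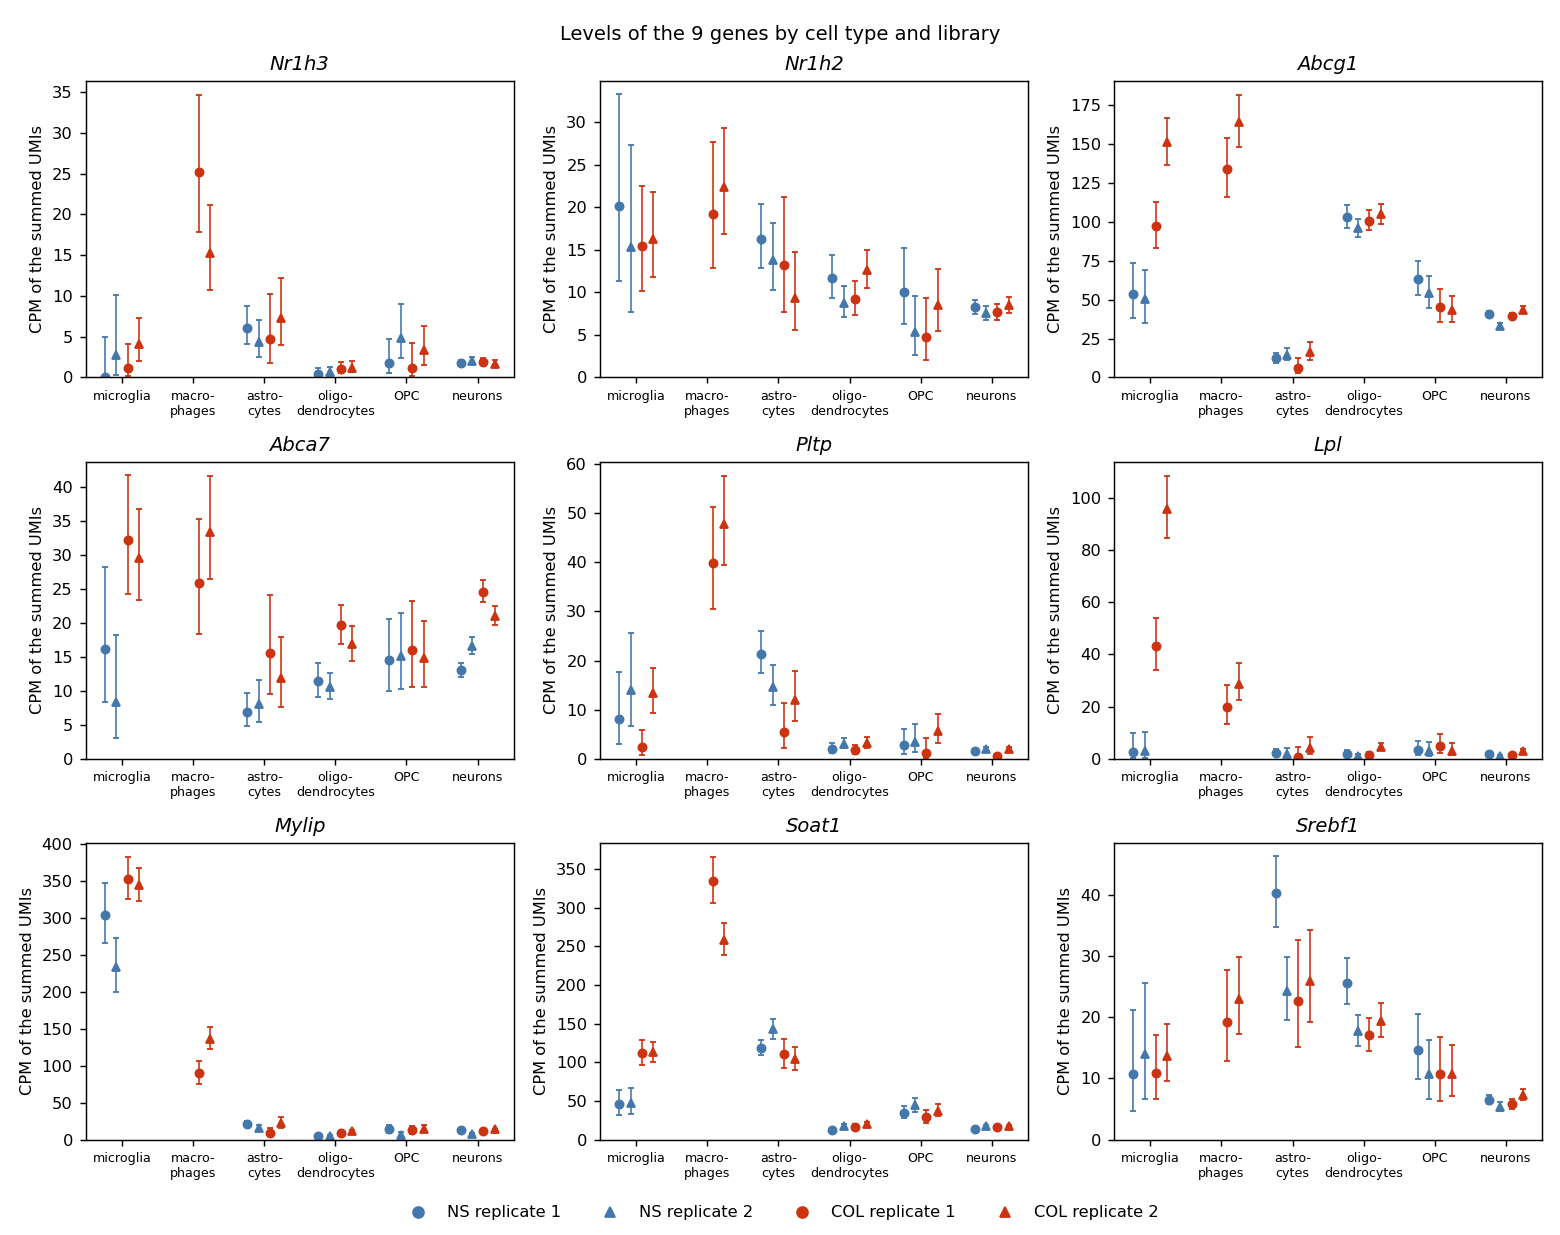
Level of each of the 9 genes (CPM, linear axis from 0) by cell type, with 1 point per library (circles replicate 1, triangles replicate 2, NS blue, COL red) and bars for the exact Poisson 95% interval, with macrophages shown for COL. Lpl, Abcg1, Soat1 and Abca7 lie higher in both COL libraries than in both NS libraries in microglia, and Mylip lies at 234–353 CPM in microglia, above every other type shown.

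Most microglia of NS and COL fell into different clusters. A first cluster held 319 and 339 nuclei of NS1 and NS2 and 4 and 5 of COL1 and COL2, another held 1, 2, 294 and 417, and a smaller cluster led by the division genes Top2a and Mki67 held 1, 3, 75 and 121. In the first, Lpl stood at 2.72 and 2.82 CPM in the NS libraries. In COL1 and COL2 it stood at 39.7 and 87.5 CPM in the larger COL cluster and at 51.3 and 115 CPM in the dividing cluster, so both COL clusters carried it. Soat1 stood at 46.1 and 48.4 CPM in the NS cluster, at 100 and 121 CPM in the larger COL cluster and at 137 and 97.8 CPM in the dividing cluster. Abcg1 stood at 54.3 and 51.2 CPM, 108 and 167 CPM, and 74.1 and 119 CPM in the same order. Each of the 3 genes was higher in both COL clusters than in the NS cluster in every library given. Abca7 stood at 16.3 and 8.54 CPM, 29.8 and 26.6 CPM, and 38.0 and 34.9 CPM.

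**Figure D2:**
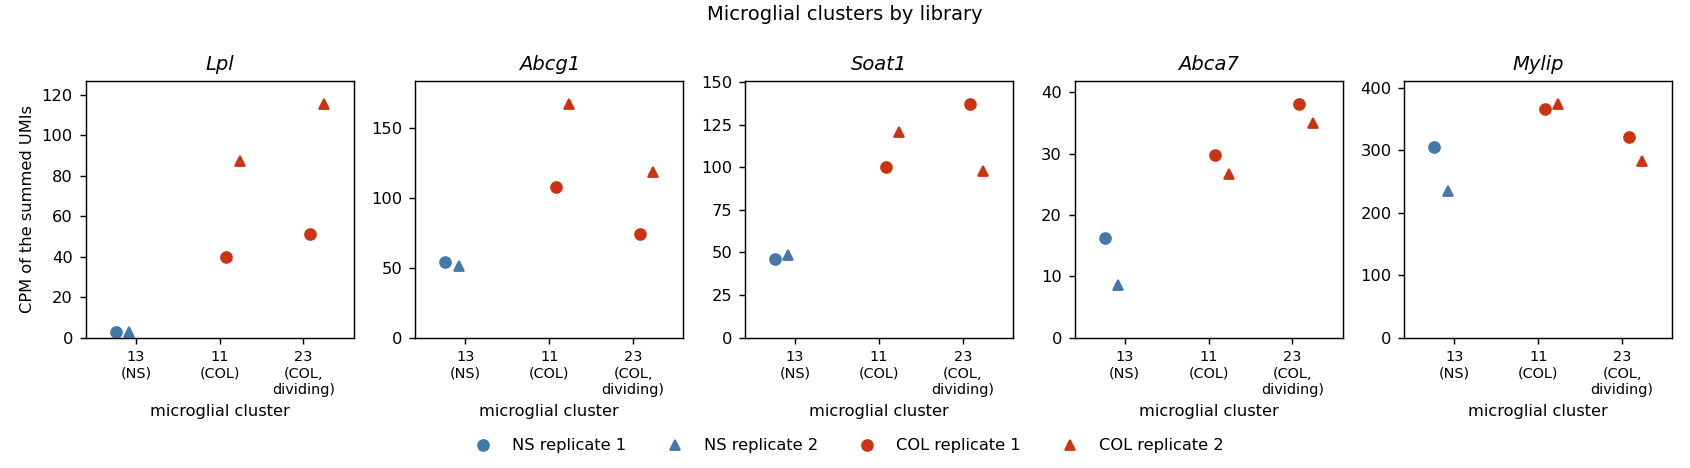
Level (CPM, linear axis from 0) of Lpl, Abcg1, Soat1, Abca7 and Mylip in the microglia clusters numbered 13, 11 and 23, with 1 point per library and with libraries of 5 or fewer nuclei in a cluster not drawn. Lpl lies at 2.72 and 2.82 CPM in the NS cluster and between 39.7 and 115 CPM in the 2 COL clusters.

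Marker levels in these sums differed between the libraries. All 10 microglia markers were detected in each library, and their summed level in microglia was 7695, 7397, 5000 and 5037 CPM in NS1, NS2, COL1 and COL2. The 8 macrophage markers summed to 9.43, 72.4, 167 and 199 CPM, and the neuron markers to 3080, 2835, 5338 and 4368 CPM. The OPC markers summed to 264, 235, 620 and 602 CPM. The oligodendrocyte markers summed to 2344, 2988, 1219 and 2787 CPM, and the astrocyte markers to 591, 499, 274 and 268 CPM. The groups did not overlap for these lists, except for the oligodendrocyte list, where COL1 was the lowest and COL2 lay between the NS libraries. Their part in the differences of the members was not tested. In COL, Lpl averaged 24.4 CPM in macrophages and 69.6 CPM in microglia. The COL means of macrophages and microglia were 296 and 112 CPM for Soat1, 149 and 124 CPM for Abcg1, and 29.7 and 30.9 CPM for Abca7.

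The change between COL and NS was next compared between the 5 cell types in a single model with the library as a term, over 20 sums. A joint test of unequal change called Soat1 (adjusted p = 2.40e-05), Lpl (adjusted p = 1.83e-04), Abcg1 (adjusted p = 7.10e-04) and Mylip (adjusted p = 0.0475), beside 19.9% of all genes tested. Abca7, at an adjusted p of 0.0983, did not pass, nor did Srebf1 (0.310), Pltp (0.446), Nr1h3 (0.549) and Nr1h2 (0.573). The call of Mylip was kept in 7 of 15 alternatives and was lost without NS1 (adjusted p = 0.331), NS2 (0.0650) or COL1 (0.219), while Soat1, Lpl and Abcg1 kept theirs in each alternative that tested them.

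In the sums of all nuclei of a type, Lpl, Abcg1 and Soat1 changed more in microglia than in each of the other 4 types. For Lpl the change in microglia exceeded that in oligodendrocytes by 3.64 on the log2 scale (SE 0.74, adjusted p = 0.00222), that in astrocytes by 4.42, that in OPC by 4.66 and that in neurons by 4.16. For Abcg1 the excess was 1.28, 1.58, 1.88 and 1.18 in the same order, with adjusted p from 1.86e-04 to 0.0150. For Soat1 it was 1.05, 1.73, 1.68 and 1.21, with adjusted p from 1.82e-05 to 0.00360. Within the astrocyte cluster shared by all libraries the change of Soat1 was 1.33 (adjusted p = 0.174), against 1.32 in microglia. The excess of Soat1 over astrocytes was thus found in the sums over both astrocyte clusters, and it was not tested against the shared cluster. Abca7 differed between microglia and OPC (1.46, SE 0.42, adjusted p = 0.0341) and not detectably between microglia and oligodendrocytes (0.64, adjusted p = 0.382), astrocytes (0.63, adjusted p = 0.504) or neurons (0.79, adjusted p = 0.158). The shares of all genes called in these comparisons were 7.38% against oligodendrocytes, 5.51% against astrocytes, 6.82% against OPC and 12.4% against neurons.

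In oligodendrocytes, Mylip and Abca7 were higher in COL. Mylip stood at 4.89 and 4.44 CPM in NS1 and NS2 and at 9.20 and 11.1 CPM in COL1 and COL2, a log2 difference of 1.2 (SE 0.27, adjusted p = 0.0171). Abca7 stood at 11.4, 10.6, 19.7 and 16.9 CPM, a log2 difference of 0.82 (SE 0.22, adjusted p = 0.0309). The groups did not overlap for either gene. These 2 of the 9 members stand beside 22.5% of all 17140 genes called in either direction and 10.1% called higher. The share of members called was therefore near that of all genes. The remaining 7 members, among them Lpl (1.90, 0.889, 1.37 and 4.44 CPM, adjusted p = 0.181) and Nr1h3 (0.407, 0.622, 1.06 and 1.18 CPM, adjusted p = 0.179), did not pass. Soat1 stood at 12.3, 18.1, 16.9 and 20.1 CPM (adjusted p = 0.355), Nr1h2 at 11.7, 8.80, 9.20 and 12.6 CPM (adjusted p = 0.628), Srebf1 at 25.6, 17.7, 17.0 and 19.4 CPM (adjusted p = 0.632) and Pltp at 1.90, 3.02, 1.69 and 3.15 CPM (adjusted p = 0.983), and the groups overlapped for each of them. Abcg1 stood at 103, 96.3, 101 and 105 CPM and its log2 difference was 0.13 (SE 0.15, adjusted p = 0.562). Abca7 lost its call in 6 of 17 alternatives, among them those without NS1 (adjusted p = 0.147), NS2 (0.150) or COL1 (0.0672). Mylip lost its call without NS1 (adjusted p = 0.0663) and without NS2 (adjusted p = 0.0795), and Lpl gained a call without COL1 (adjusted p = 0.0152).

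Oligodendrocytes too were split by group. NS1 and NS2 gave 1558 and 2365 nuclei to a larger NS cluster and 558 and 1148 to a smaller NS cluster, while COL1 and COL2 gave 1278 and 1105 to a larger COL cluster and 345 and 445 to a smaller COL cluster. Mylip stood at 4.16 and 2.03 CPM in the larger and at 6.50 and 8.20 CPM in the smaller NS cluster. It stood at 7.26 and 10.0 CPM in the larger and at 14.3 and 13.3 CPM in the smaller COL cluster. Enpp6, a gene of newly formed oligodendrocytes, was among the leading genes of both smaller clusters, and Mylip was higher in each of them than in the larger cluster of the same group. Macrophage markers summed to 2.31, 3.82, 19.6 and 30.7 CPM in the oligodendrocytes of NS1, NS2, COL1 and COL2, and the 9 oligodendrocyte markers to 16762, 16114, 14161 and 16800 CPM. Neuron markers summed to 2265, 2081, 4450 and 3406 CPM there, and OPC markers to 1022, 925, 1381 and 1467 CPM. Astrocyte markers went the other way. The part of the macrophage, neuron and OPC markers' cells in the rise of Mylip and Abca7 was not tested. The change of Mylip was larger in oligodendrocytes than in astrocytes (1.30, SE 0.34, adjusted p = 0.0305) and neurons (0.87, SE 0.26, adjusted p = 0.0297), where 3.61% and 9.74% of all genes were called. It was not told apart from the change in OPC (0.77 larger, adjusted p = 0.346) or in microglia (microglia minus oligodendrocytes -0.66, adjusted p = 0.152). In the astrocyte sums Mylip changed by -0.12, and by -0.94 to 0.32 with a library left out. Within the astrocyte cluster shared by all libraries it changed by 0.43, and the excess in oligodendrocytes was not tested against that cluster.

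In astrocytes none of the 8 members tested passed the threshold in edgeR's quasi-likelihood test, where 14.5% of all 14472 genes did (2097 genes, and 4476 at an unadjusted p under 0.05). Abca7 stood at 6.91 and 8.10 CPM in NS1 and NS2 and at 15.6 and 11.9 CPM in COL1 and COL2 (log2 difference 0.88, SE 0.35, adjusted p = 0.118), so its groups did not overlap. Neuron markers in these astrocytes summed to 2354, 2146, 4437 and 3828 CPM and OPC markers to 322, 366, 673 and 773 CPM. Their part in the values of Abca7 was not tested. Pltp stood at 21.4, 14.6, 5.47 and 11.9 CPM (log2 difference -0.95, SE 0.38, adjusted p = 0.122), and its log2 difference was -1.69 without COL2. Soat1 stood at 119, 143, 110 and 104 CPM, and its log2 difference of -0.27 (SE 0.18) was not detectable (adjusted p = 0.336). In the astrocyte cluster shared by all libraries, which kept 45 and 32 NS nuclei, the difference was 1.33 in the opposite direction and was not called. Abcg1 stood at 12.4, 14.6, 6.25 and 16.1 CPM, with COL1 the lowest and COL2 the highest (adjusted p = 0.823). The adjusted p was 0.396 for Srebf1, 0.40 for Nr1h2, 0.740 for Nr1h3 and 0.861 for Mylip, and Lpl had too few UMIs for a test. COL astrocytes were few, with 200 and 274 nuclei against 1208 and 1083 in NS, and most fell into a cluster that held 45 and 32 NS nuclei. Apoe stood at 1331, 1221, 300 and 740 CPM in astrocytes (log2 difference -1.26, SE 0.32, adjusted p = 0.0315), and its size therefore depends on the COL library.

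In OPC none of the 6 members tested passed in edgeR's test, beside 17.8% of all 13422 genes (2386 genes, and 4314 at an unadjusted p under 0.05). Abcg1 stood at 63.4, 54.1, 45.5 and 43.4 CPM (log2 difference -0.37, SE 0.18, adjusted p = 0.177), and both COL values lay below both NS values. Abca7 stood at 14.6, 15.1, 16.0 and 14.9 CPM (adjusted p = 0.896), within a narrow range. The adjusted p was 0.450 for Mylip, 0.583 for Soat1, 0.713 for Srebf1 and 0.877 for Nr1h2, and Nr1h3, Pltp and Lpl had too few UMIs for a test. Most NS precursors were in a cluster with 307 and 317 nuclei of NS1 and NS2 and 2 and 7 of COL1 and COL2, and the other OPC cluster held 93, 113, 208 and 298.

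In neurons none of the 9 passed in edgeR's test, beside 0.00429% of all 23322 genes, that is 1 gene, with 6678 genes at an unadjusted p under 0.05 and 2464 genes called by DESeq2. Abca7 stood at 13.04, 16.7, 24.6 and 21.0 CPM in neurons (log2 difference 0.77, SE 0.23, adjusted p = 0.112), and Abcg1 at 41.0, 33.0, 39.5 and 43.7 CPM (adjusted p = 0.182). The adjusted p was 0.307 for Lpl, 0.311 for Mylip, 0.385 for Soat1, 0.408 for Srebf1, 0.551 for Nr1h2, 0.712 for Pltp and 0.884 for Nr1h3. NS and COL neurons lay largely in different clusters too. The largest held 1986 and 2633 nuclei of NS1 and NS2 and 7 and 53 of COL1 and COL2, another held 1784, 342, 9 and 176, and a further large cluster held 84, 147, 982 and 1728. In the last, Abca7 stood at 16.5, 28.2, 17.2 and 18.5 CPM, so the groups overlapped there. In a neuron cluster with 250, 623, 683 and 324 nuclei Abca7 stood at 25.6, 25.4, 33.0 and 38.8 CPM, and both COL values were the higher. A different make-up of neurons and a change within neurons cannot be told apart in the sums.

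**Figure D3:**
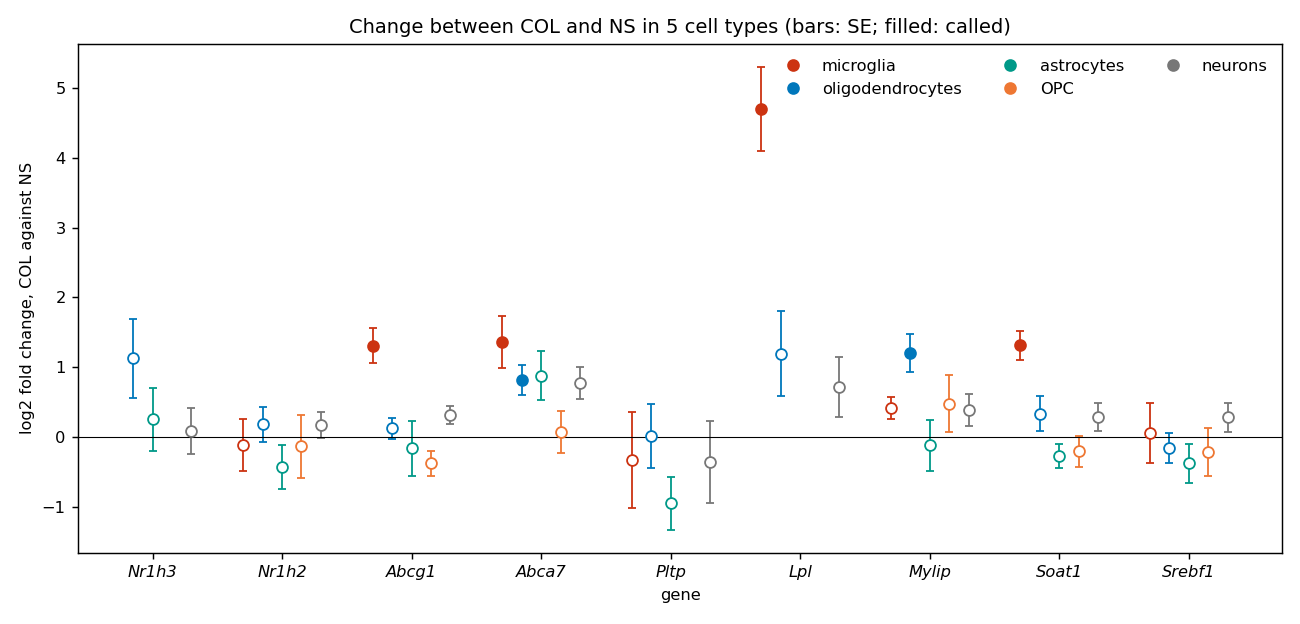
Log2 fold change of COL against NS for each member in the 5 cell types, with bars of 1 SE, filled points where the adjusted p was under 0.05 and no point where the gene was not tested. The filled points are Lpl, Abcg1, Soat1 and Abca7 in microglia and Mylip and Abca7 in oligodendrocytes, and Lpl in microglia stands apart at 4.69.

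Over all nuclei of a library, Lpl and Mylip were higher in COL. Lpl stood at 1.81, 1.21, 3.42 and 8.13 CPM (log2 difference 2.06, SE 0.40, adjusted p = 0.0345) and Mylip at 16.0, 10.6, 21.9 and 33.3 CPM (log2 difference 1.19, SE 0.23, adjusted p = 0.0320). Without COL2 the difference of Lpl was 1.36, and scaling by total UMIs alone lost both calls (adjusted p = 0.0594 for Lpl and 0.0723 for Mylip). Both genes were called beside 9.45% of all 25570 genes in either direction and 5.02% higher, and Abca7 was called too without COL2 (adjusted p = 0.0164). The adjusted p was 0.0541 for Abca7, 0.0680 for Abcg1, 0.0954 for Soat1, 0.333 for Nr1h3, 0.450 for Nr1h2, 0.556 for Pltp and 0.943 for Srebf1. In such sums more cells of a type and more RNA per cell cannot be told apart. Microglia were 3.32%, 3.30%, 6.29% and 8.67% of the nuclei of NS1, NS2, COL1 and COL2, and macrophages 0.0310%, 0.0480%, 5.36% and 7.53%. Microglia gave 1.43% and 2.41% of the Lpl UMIs of NS1 and NS2 and 31.5% and 46.0% of those of COL1 and COL2, where macrophages gave another 12.6% and 12.04%. For Mylip the microglial share was 18.2%, 22.98%, 40.4% and 40.2%. Neurons gave 59.3% and 59.0% of the Lpl UMIs in NS and 19.3% and 20.5% in COL. Clusters left unnamed or mixed are not in these shares. Unnamed clusters made up 3.67%, 3.00%, 12.9% and 4.49% of the nuclei of NS1, NS2, COL1 and COL2, and the largest of them, with 1430 nuclei, scored highest for neuron markers. Macrophages gave 25.9% and 25.6% of the Soat1 UMIs and 39.2% and 31.7% of the Pltp UMIs of COL1 and COL2.

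Macrophages were too few in NS for a comparison between groups and were compared with microglia within the COL libraries. In COL macrophages the macrophage markers summed to 2726 and 2438 CPM, with 8 and 6 of the 8 detected, and the microglia markers to 1366 and 1613 CPM. Oligodendrocyte markers summed to 2055 and 3587 CPM there against 1219 and 2787 CPM in COL microglia. OPC markers summed to 940 and 1145 against 620 and 602 CPM, and neuron markers to 5571 and 4194 against 5338 and 4368 CPM. Astrocyte markers were lower in macrophages (181 and 235 against 274 and 268 CPM). The part of these lists in the differences was not tested. Of the 9 members, Nr1h3, Pltp, Soat1 and Srebf1 were higher in macrophages and Lpl and Mylip were lower, beside 15.1% of all 13392 genes called higher and 15% called lower. Nr1h3 stood at 25.2 and 15.3 CPM in COL1 and COL2 macrophages against 1.15 and 4.07 CPM in microglia of the same libraries (log2 difference 2.69, SE 0.42, adjusted p = 1.76e-09). Pltp stood at 39.9 and 47.9 CPM against 2.30 and 13.3 CPM (log2 difference 2.35, SE 0.26, adjusted p = 3.11e-18). Soat1 stood at 335 and 258 CPM against 112 and 113 CPM (log2 difference 1.36, SE 0.12, adjusted p = 1.22e-26). Each of the 3 was higher in macrophages in both libraries.

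Lpl stood at 19.9 and 28.8 CPM in macrophages against 43.1 and 96.1 CPM in microglia (log2 difference -1.55, SE 0.19, adjusted p = 1.47e-14). Mylip stood at 90.3 and 136 CPM against 353 and 344 CPM (log2 difference -1.62, SE 0.12, adjusted p = 2.60e-37). Both were lower in macrophages in both libraries. Srebf1 stood at 19.3 and 22.9 CPM against 10.9 and 13.7 CPM (log2 difference 0.75, SE 0.29, adjusted p = 0.0311) and kept its call in 6 of 11 alternatives. The difference was not detectable for Nr1h2 (19.3 and 22.5 CPM against 15.5 and 16.3 CPM, adjusted p = 0.314), Abcg1 (134 and 164 CPM against 97.1 and 151 CPM, adjusted p = 0.139) and Abca7 (25.9 and 33.5 CPM against 32.2 and 29.6 CPM, adjusted p = 0.934). For reference, Apoe stood at 1386 and 2481 CPM in macrophages (log2 difference 2.23, adjusted p = 9.15e-84), and Abca1 differed by -0.17 (adjusted p = 0.256). This fit had 2 libraries and rests on a single residual degree of freedom per gene, with the spread shared across genes, and without the filter on low counts the adjusted p of the called members other than Srebf1 rose to between 0.00681 and 0.0480.

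**Figure D4:**
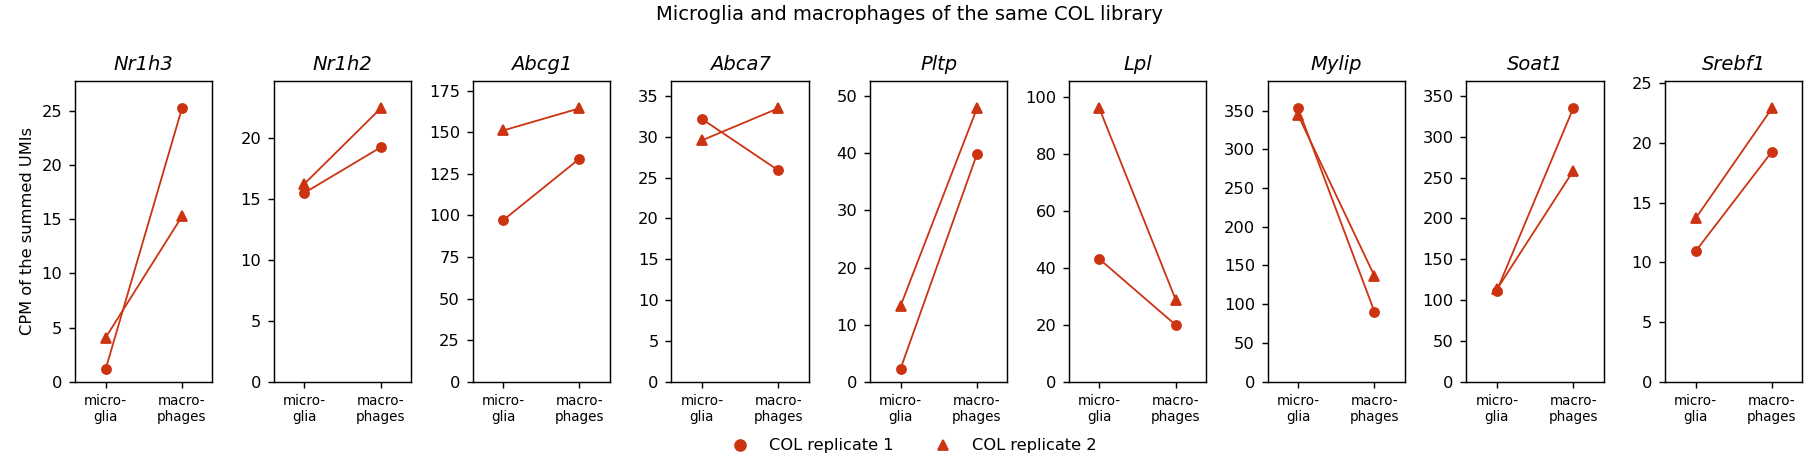
Level (CPM, linear axis from 0) of the 9 members in microglia and macrophages of COL1 (circles) and COL2 (triangles), with a line joining the types of a library. In both libraries the lines rise towards macrophages for the called genes Nr1h3, Pltp, Soat1 and Srebf1 and also for Nr1h2 and Abcg1, which were not called, and fall for Lpl and Mylip, while those of Abca7 cross.

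The members differed in which cell type held them. Over the 5 types, 66 of the 90 combinations of a member and a pair of types were called for level, with both groups weighted equally. Calls were frequent among all genes too. They reached 48.6% between microglia and oligodendrocytes, 50% between microglia and astrocytes, 52.5% between microglia and OPC and 69% between microglia and neurons. Between oligodendrocytes and astrocytes, OPC and neurons they reached 50.7%, 52.3% and 75.7%. Between astrocytes and OPC, astrocytes and neurons, and OPC and neurons they reached 41.2%, 62% and 56.6%. The 66 of 90 stand beside these shares.

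Mylip was highest in microglia (234–353 CPM), by 3.90 on the log2 scale above astrocytes (9.37–22.3 CPM) and by 5.09 above oligodendrocytes (4.44–11.1 CPM). Astrocytes stood above OPC (5.84–14.9 CPM) and neurons (8.17–13.8 CPM), which did not differ detectably from each other, and oligodendrocytes stood below all other types. With both groups weighted equally, Lpl was higher in microglia (2.69–96.1 CPM) than in each other type, by 1.84 to 2.67. This order came from COL, where microglia averaged 69.6 CPM, since NS microglia averaged 2.74 CPM and NS OPC 3.06 CPM. Apart from microglia, OPC (2.92–4.73 CPM) stood above neurons (1.14–2.93 CPM) by 0.83. No other neighbours in the order of Lpl were told apart.

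With both groups weighted equally, Soat1 was higher in astrocytes (104–143 CPM) than in microglia (45.8–113 CPM) by 0.94, followed by OPC (29.6–44.3 CPM). In COL the order of the first 2 did not hold, since microglia stood at 112 and 113 CPM and astrocytes at 110 and 104 CPM. Neurons (13.8–17.3 CPM) and oligodendrocytes (12.3–20.1 CPM) came last and did not differ detectably. Abcg1 was higher in oligodendrocytes (96.3–105 CPM) than in microglia (50.1–151 CPM) by 0.70 on the same footing. In NS the means were 99.8 and 52.0 CPM, and in COL 103 and 124 CPM, so the order did not hold in COL. Microglia stood above OPC in COL, but not in NS, where OPC averaged 58.7 CPM. OPC (43.4–63.4 CPM) and neurons (33.0–43.7 CPM) were not told apart, and astrocytes (6.25–16.1 CPM) came last. Soat1 and Abcg1 thus had opposite orders in astrocytes and oligodendrocytes: Soat1 was lower in oligodendrocytes by 2.67 and Abcg1 was higher there by 3.14. Abca7 was lowest in astrocytes (6.91–15.6 CPM), below each other type. It was lower in oligodendrocytes and OPC than in neurons, and microglia (8.36–32.2 CPM) were not told apart from neurons, oligodendrocytes or OPC. The order of OPC and neurons came from COL, with means of 15.4 and 22.8 CPM, since both averaged 14.8 CPM in NS.

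Nr1h3 was low throughout. It was highest in astrocytes (4.32–7.26 CPM), not told apart from OPC (1.18–4.87 CPM), and above neurons (1.67–2.00 CPM) by 1.52, microglia by 1.76 and oligodendrocytes (0.407–1.18 CPM) by 2.74. Nr1h2 was not told apart among microglia (15.3–20.2 CPM), astrocytes (9.34–16.3 CPM) and oligodendrocytes (8.80–12.6 CPM), which stood above OPC (4.73–10.0 CPM) and neurons (7.57–8.51 CPM). Srebf1 was highest in astrocytes (22.6–40.2 CPM), then in oligodendrocytes (17.0–25.6 CPM), with OPC (10.6–14.6 CPM) and microglia (10.8–13.9 CPM) not told apart and neurons (5.41–7.30 CPM) last. Pltp was not told apart between astrocytes (5.47–21.4 CPM) and microglia (2.30–13.9 CPM) and was lowest in neurons (0.476–1.92 CPM).

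Outside these 5 types, nuclei named pericyte and fibroblast, 34, 63, 27 and 47 in NS1, NS2, COL1 and COL2, held Pltp at 141, 97.8, 123 and 127 CPM, from 10 to 36 UMIs a library. Their Nr1h3 level was 42.4, 19.6, 4.72 and 17.6 CPM from 1 to 5 UMIs, too few to order. Endothelial markers summed to 1921, 1977, 4493 and 2473 CPM in these nuclei. Pericyte and fibroblast markers summed to 3912, 1709, 1824 and 1683 CPM, the lower of the 2 lists in NS2, COL1 and COL2. The levels therefore belong to a group that also carries endothelial markers, and not to pericytes and fibroblasts alone.

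By their pattern over the 20 sums of 5 types in 4 libraries, the genes most like each member were found among 13446 genes by the correlation of log2(CPM + 1). The sums share libraries and depth, and the values are a description. For Mylip they were Nipa2 (r = 0.981) and Znrf2 (r = 0.980), for Lpl Lilr4b (r = 0.939) and Lilrb4a (r = 0.938), for Soat1 Gm36933 (r = 0.957) and Hif1a (r = 0.948), and for Abcg1 Sh3bp5 (r = 0.916) and Nceh1 (r = 0.903). For Pltp they were Chil1 (r = 0.916) and Apoe (r = 0.895), for Srebf1 Trp53bp2 (r = 0.943) and 2310022B05Rik (r = 0.943), and for Abca7 Ddx10 (r = 0.893) and Ubap2 (r = 0.885). Nr1h2 and Nr1h3 came closest to Gatb (r = 0.912) and Klhl24 (r = 0.911), and to Tmem51 (r = 0.869) and Mthfd1 (r = 0.831). Among the genes named here, Apoe came up for Pltp alone.

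Around the members, 6 lists of pathway genes held 62 further genes. In microglia 47 of them could be tested, of which 7 were higher and 6 lower in COL beside 27.6% of all genes called in either direction, and their median log2 fold change was -0.01. The list of LXR receptors, partners and coregulators had 2 higher and 0 lower of 9 tested, the LXR target list 3 higher and 1 lower of 16, and the ABCA and ABCG transporters 3 and 2 of 11, where members and the reference genes Apoe and Abca1 are counted in. The higher genes were Abca1, Abcg1 and Lpl in the target list and Abca1, Abcg1 and Abca7 among the transporters, so both counts hold genes already described. Lipoproteins and their receptors had 0 higher and 1 lower of 11, the list of sterol storage, release and lysosomal exit 5 and 1 of 11, and Lpl partners with fatty acid uptake 2 and 1 of 7. The largest changes of genes other than members were those of Cd36, Plin2, Clu and Fabp3. Cd36, a scavenger receptor for oxidized lipoproteins and fatty acids, had 0, 1, 34 and 58 UMIs in NS1, NS2, COL1 and COL2 (adjusted p = 0.00111). Plin2, a coat protein of lipid droplets, stood at 9.43, 22.3, 136 and 148 CPM (log2 difference 3.21, SE 0.30, adjusted p = 5.62e-05). Both were thus higher in COL with Lpl and Soat1. Clu, a secreted apolipoprotein abundant in astrocytes, stood at 133, 125, 24.1 and 35.8 CPM (log2 difference -2.03, SE 0.23, adjusted p = 1.52e-04), and Fabp3, a fatty acid carrier, at 22.9, 22.3, 4.60 and 6.28 CPM (log2 difference -1.96, SE 0.42, adjusted p = 0.00546). Both were lower in COL, as was the summed level of astrocyte markers in the same nuclei, whose part was not tested.

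In oligodendrocytes 50 listed genes were tested, with 4 higher and 5 lower beside 22.5% of all genes called. Plin2 (0.814, 0.889, 5.29 and 9.86 CPM) and Mertk (5.70, 6.84, 15.9 and 23.1 CPM), a receptor for the uptake of dying cells, were higher, and Fabp3 (23.1, 19.2, 2.33 and 6.11 CPM) and Clu (83.1, 82.8, 20.4 and 34.7 CPM) were lower, with adjusted p from 0.00486 to 0.00701. In the same nuclei astrocyte markers were lower in COL (423, 334, 220 and 248 CPM) and macrophage markers higher (2.31, 3.82, 19.6 and 30.7 CPM). Their part in these changes was not tested. In astrocytes 1 was higher and 7 were lower of 50 beside 14.5% of all genes called, among the latter Fabp3, Fabp7, Stard4 and Scd2, with log2 differences from -2.06 to -1.12. In OPC 3 were higher and 6 lower of 48 beside 17.8% of all genes called, with Fabp3 (-2.04), Scd1 (-1.67) and Abca6 (-1.31) among the lower and Plin2 (1.65) among the higher. In neurons 0 of 57 were called in edgeR's test. Over all nuclei 7 were higher and 2 lower of 59 beside 9.45% of all genes called. In COL macrophages against microglia 18 were higher and 5 lower of 49, beside 15.1% of all genes called higher and 15% called lower. Cd36 (139 and 101 CPM against 19.5 and 21.4 CPM) and Smpdl3a (33.9 and 32.6 CPM against 4.60 and 7.02 CPM), an LXR target of the lysosome and extracellular space, were higher in macrophages, and Abca9 (21.3 and 39.4 CPM against 251 and 210 CPM) and Abcg2 (10.6 and 9.32 CPM against 61.5 and 60.2 CPM) were lower. Cd36 thus moved in the opposite direction to Lpl in this comparison, although both were higher in COL than in NS microglia.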

How the data were processed

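The 4 libraries were made from nuclei of thalamic tissue with the 10x Genomics 3' chemistry, and the authors processed the reads with Cell Ranger 1.2.0 against the mm10 mouse reference. The files deposited by the authors hold raw UMI counts, not normalized, for the barcodes called as cells. Strand and intron counting are not given in the sources used here, and no removal of doublets or free RNA was named.

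Nuclei with more than 50 genes and under 5% mitochondrial UMIs were kept (32291 of 32332). They were clustered in Seurat 5.3.0 (Matrix 1.6.5) from 5000 variable genes, less the 17 of them that were members or pathway genes, with 15 of 50 PCs rounded to 3 decimals and a resolution of 0.8 (31 clusters). Clusters were named from marker lists by a rule written after the clusters had been seen, which required at least 3 detected markers of a type. Clusters with over 50% doublet calls were called mixed and left out of the types, and an alternative removed all doublets called (749, 869, 281 and 314 nuclei of NS1, NS2, COL1 and COL2, those of mixed clusters included). UMI counts were summed per library and type, and 1 library was the replicate. The sums were tested in R 4.3.3 with edgeR 4.0.16 (with limma 3.58.1) by its quasi-likelihood F test after TMM scaling and filterByExpr, with p-values adjusted over all genes tested by the Benjamini-Hochberg method and a threshold of 0.05. DESeq2 1.42.0 was an alternative, and the tests were tested on simulated data first. Standard errors (SE) of log2 fold changes were taken as the change over the square root of its F value. Differences between types were fitted over 20 sums with the library as a term. Values and figures were made with Python 3.11.15, numpy 2.4.6, scipy 1.17.1, pandas 2.3.3, scikit-learn 1.9.0 and matplotlib 3.10.9. Gene positions are those of GENCODE on GRCm38, whose identifiers matched the files for all 9 members.

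The members and lists were chosen with earlier results of these data known. By the rule for named genes, all members were named in every comparison of COL with NS and of macrophages with microglia, with at most 4 called genes of the pathway lists by size of change and, for each member, the 2 most correlated genes with a mean of at least 5 CPM. Nothing in the labels ties library numbers to a shared day. The p-values of COL against NS within a type measure the spread between pools of 3 mice. In fits with the library as a term, they measure the spread that remains after the overall level of each library is removed. Intervals of 95% cover counting error only.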

Additional observations from a re-analysis of the deposited data

Results flagged for a closer look

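Of the 9 members, 4 changed unequally between the 5 cell types in the joint test of edgeR's quasi-likelihood model, beside 19.9% of all 16765 genes tested. The adjusted p was 2.40e-05 for Soat1, 1.83e-04 for Lpl, 7.10e-04 for Abcg1 and 0.0475 for Mylip. In the sums of all nuclei of a type, the first 3 rose most in microglia. Within the astrocyte cluster shared by all libraries, the change of Soat1 was 1.33 and not called, against 1.32 in microglia. The call of Mylip was lost in 8 of 15 alternatives, among them those without NS1 (adjusted p = 0.331), NS2 (0.0650) or COL1 (0.219). Its log2 difference was 1.2 in oligodendrocytes (adjusted p = 0.0171, and 0.0663 without NS1 and 0.0795 without NS2) and -0.12 in astrocytes (adjusted p = 0.861), where it ran from -0.94 to 0.32 with a library left out.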

How the results depend on the processing

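The number of members called was 4 in microglia and lay between 3 and 5 in every alternative. It was 2 in oligodendrocytes, with 1 by DESeq2, by total UMIs without further scaling and with nuclei thinned to 2000 UMIs, and 0 to 2 with a library left out (0 without NS1 or NS2). It was 0 in astrocytes and neurons, with 1 in each when low counts were not filtered, and 0 to 1 in astrocytes with a library left out (Pltp without COL2). Over all nuclei it was 2, with 0 by total UMIs and 3 by DESeq2, without the filter on low counts, with thinned nuclei and without COL2, where Abca7 was called in addition (adjusted p from 0.00136 to 0.0308). The joint test called 4. It called 3 in several settings, among them DESeq2, RLE scaling, total UMIs and members kept for clustering. With thinned nuclei it called 2 of the 7 members tested. With the replicate number as a block, 5 members were called in microglia (Mylip in addition), 2 in oligodendrocytes, 3 over all nuclei (Abca7 in addition) and 0 elsewhere. The deviations of same-numbered libraries had correlations between -0.09 and 0.16 over 2 pairs, which are too few to tell whether the numbers pair the libraries, and the labels do not say that they do. No block was fitted to the differences between cell types, and macrophages could not be tested without a COL library.

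Of 1035 alternative values, 950 kept their direction and side of the threshold, 26 were no longer past it, 15 became so, and 44 changed sign, none of them called in either setting (the cause was not tested). By marker score of each nucleus these were Nr1h2 (0.33) and Pltp (0.51) in microglia and Soat1 in OPC (0.21). Without the dividing cluster Srebf1 in microglia was at -0.12. Pltp in oligodendrocytes was at -0.045 by total UMIs, -0.024 at a resolution of 0.4, -0.0065 with doublets removed, -0.48 thinned and -0.20 without the Enpp6 clusters. Thinning also gave 0.0040 for Srebf1 in oligodendrocytes, 0.0050 for Mylip in astrocytes, -0.35 for Nr1h3 in neurons, -0.10 for Srebf1 over all nuclei and 0.15 for Abca7 in macrophages against microglia. Total UMIs gave -0.067 for Nr1h3 in neurons and -0.12 for Srebf1 over all nuclei, and removal of doublets -0.0069 for Abca7 in OPC and 0.076 for Abca7 in macrophages against microglia. In the astrocyte cluster shared by all libraries Mylip was at 0.43 and Soat1 at 1.33, and with members kept for clustering Abcg1 in astrocytes was at 0.70.

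With a library left out, the log2 difference in microglia ran from -0.25 to 0.076 for Nr1h2, -2.13 to 0.32 for Pltp and -0.14 to 0.30 for Srebf1. In oligodendrocytes it ran from -0.045 to 0.35 for Nr1h2, -0.49 to 0.48 for Pltp and -0.36 to 0.066 for Srebf1, and in astrocytes from -0.13 to 0.50 for Nr1h3, -1.07 to 0.29 for Abcg1 and -0.94 to 0.32 for Mylip. In OPC it ran from -0.62 to 0.36 for Nr1h2, -0.37 to 0.043 for Soat1 and -0.35 to 0.015 for Srebf1, in neurons from -0.13 to 0.24 for Nr1h3 and -1.62 to 0.26 for Pltp, and over all nuclei from -0.35 to 0.73 for Pltp and -0.15 to 0.11 for Srebf1.

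Counts of all genes called moved by more than 1.5 times in some settings. They ran over the alternatives from 1439 to 3886 in microglia (3338 in the main setting), 2074 to 7110 in oligodendrocytes (3865), 656 to 3225 in astrocytes (2097), 900 to 3515 in OPC (2386), 0 to 5133 in neurons (1), 1213 to 7012 over all nuclei (2416), 1921 to 3959 in the joint test (3337) and 1480 to 4177 in macrophages against microglia (4027). In NS microglia, Lpl and Nr1h3 rested on 4 or fewer UMIs in all.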
